A study of Mus musculus with 5 samples.

Results

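The myelin genes Mbp, Mobp, Mog, Mag, Cnp, Mal, Opalin, Cldn11 and Ermn were followed through single-nucleus RNA sequencing of the mouse central amygdala (CeA), a forebrain nucleus made up mainly of inhibitory neurons. They were taken by name, as 9 of the 22532 genes of the count tables. The 5 libraries were made from dissected CeA, each pooled from 2 C57BL6 mice, a male and a female, so that no value belongs to a single mouse. Fed 1 and fed 2 came from mice of 8 weeks with free access to food. Fed 3 came from fed Htr2a-Cre mice of 12 weeks that carried AAV-DIO-mCherry, a virus that expresses the red protein mCherry in cells with Cre, here under control of Htr2a. Fasted 1 and fasted 2 came from mice of 8 weeks that had been without food for 20 and 21 h. The study states that its datasets Fed_1 and Fast_1 shared a preparation, as did Fed_2 and Fast_2. Replicate numbers were taken to match these names, a match that the sample titles do not give. Fed 3 then has no fasted partner. The study also describes a further fed dataset as a separate batch without fasted mice. If fed 3 is that dataset, its genotype, virus, age and batch cannot be told apart.

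Myelin is the stack of membrane that oligodendrocytes wrap around axons so that action potentials travel fast. Its proteins have separate tasks. Mbp, myelin basic protein, holds the cytoplasmic faces of the membrane together, and Mobp is a small basic protein with a place in the same compacted layers. The mRNAs of both are known to be carried out of the cell body into the oligodendrocyte's processes and to be translated there. Mog and Mag are immunoglobulin-like proteins of the myelin surface, Mog on the outermost layer and Mag on the layer that faces the axon. Cnp, a 2′,3′-cyclic nucleotide phosphodiesterase, keeps cytoplasmic channels open in the sheath, Mal is a proteolipid that takes part in sorting membrane to the sheath, and Cldn11 is the claudin of its tight junctions. Opalin is a membrane protein found in oligodendrocytes, and Ermn, ermin, is a cytoskeletal protein of late differentiation. Oligodendrocytes arise from precursors that carry Pdgfra, and the transcription factors Sox10 and Olig2 mark the lineage from precursor to myelinating cell.

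The genes lie on several chromosomes. In GENCODE vM39 on GRCm39 the gene bodies of Mobp (chr9:119973770-120011273, plus strand), Mog (chr17:37321521-37334350, minus strand), Mag (chr7:30598464-30614474, minus strand), Cnp (chr11:100465730-100482936, plus strand), Mal (chr2:127475142-127498615, minus strand), Opalin (chr19:41045254-41065553, minus strand), Cldn11 (chr3:31203900-31218495, plus strand) and Ermn (chr2:57934641-57942882, minus strand) hold exons, introns and untranslated regions. By the methods of the study intronic reads were included, so that all of these could be counted. Mobp overlaps Gm38642 on the same strand, so that reads of their shared stretch cannot be assigned with certainty. Mog, Cnp, Opalin and Ermn overlap Zfp57, Dnajc7, Dntt and Galnt5 on the opposite strand.

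Because the promoters of genes of 1 lineage can share sites of the lineage's factors, the 250 bases before the start of each gene were searched on both strands in RefSeq sequence of GRCm38.p6, in which 8 of the 9 genes were found, for ACAAAG and ACAATG, forms of the core bound by Sox proteins, and for CAGCTG, an E-box, and TATAAA, the TATA box. These 4 strings differ, so that no stretch counted under more than 1 of them. ACAAAG was present before Mobp, Cnp, Opalin and Mag, 4 of 8 genes, against 16.5% of 27025 promoters of the same length. Mag has 3 starts in that table, 2 with the motif and 1 without, and so had more chances than a single promoter. ACAATG was present in that of Ermn (11.0% of all promoters), and CAGCTG (12.8%) and TATAAA (12.97%) in none. Mobp had 6 copies of ACAAAG. The promoters of 3 genes, Mobp, Opalin and Mal, are given 5′ to 3′ on the strand of the gene, with capitals at ACAAAG or at its complement CTTTGT. These 3 were picked by their differences with fasting, none of which was called in the planned tests. A link of promoter and fasting was not tested.
Mobp, chr9:120149492-120149741, plus strand: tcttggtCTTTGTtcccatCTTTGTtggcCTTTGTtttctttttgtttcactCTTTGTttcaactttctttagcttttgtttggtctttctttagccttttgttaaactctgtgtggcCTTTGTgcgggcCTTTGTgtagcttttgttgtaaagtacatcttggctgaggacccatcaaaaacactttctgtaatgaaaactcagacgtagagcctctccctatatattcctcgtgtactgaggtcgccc
Opalin, chr19:41077114-41077363, minus strand: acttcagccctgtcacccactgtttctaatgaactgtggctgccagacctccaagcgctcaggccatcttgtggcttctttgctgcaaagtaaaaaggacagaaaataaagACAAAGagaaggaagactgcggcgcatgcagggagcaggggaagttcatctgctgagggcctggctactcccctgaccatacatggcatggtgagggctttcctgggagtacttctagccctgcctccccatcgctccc
Mal, chr2:127656696-127656945, minus strand: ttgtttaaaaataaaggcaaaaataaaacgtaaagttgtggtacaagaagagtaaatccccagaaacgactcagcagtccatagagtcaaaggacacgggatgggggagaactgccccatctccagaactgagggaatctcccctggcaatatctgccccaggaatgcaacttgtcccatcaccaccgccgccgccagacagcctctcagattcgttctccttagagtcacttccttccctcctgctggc
The copies in Mobp are all in the CTTTGT orientation, that in Opalin is in the ACAAAG orientation, and Mal has none in this window. A match describes the letters and not a bound site.

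Transcripts were counted as unique molecular identifiers (UMIs), 1 per captured RNA molecule, and the libraries held 17321997 to 53146326 UMIs over 1694 to 7850 barcodes. Nuclei were barcodes with 500 to 8000 genes and under 0.8% of UMIs from the 13 mitochondrially encoded genes, 7161 of 23839 barcodes. Oligodendrocyte-lineage nuclei had at least 1 UMI of Pdgfra, Sox10 or Olig2 and none of Gad1 or Gad2 (144 nuclei, 13 to 47 per library), and Gad1/Gad2 neurons had at least 2 UMIs of these and none of the lineage genes (4828, 738 to 1263 per library). The 13537 mitochondria-rich barcodes had at least 5% mitochondrial UMIs (123 to 4800 per library, fed 3 having the fewest). Pairs of libraries shared 0 to 22 barcode sequences. Levels are given in CPM, UMIs per 1000000 non-mitochondrial UMIs of the same class and library, and intervals on shares cover counting error only. Lineage nuclei carried 539 to 7684 CPM of 6 oligodendrocyte markers and 8127 to 13136 CPM of 5 precursor markers, but also 2161 to 7314 CPM of 4 neuron markers and 18.9 to 1001 CPM of 6 microglia markers. In neurons the neuron markers summed to 14360.0 to 15890.4 CPM. Mitochondria-rich barcodes were no single cell type, with 6394 to 8623 CPM of 6 astrocyte markers, 2971 to 5117 CPM of the neuron markers and 925 to 2047 CPM of the oligodendrocyte markers.

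The first comparison asked where the myelin genes were found. All 9 were higher in lineage nuclei than in Gad1/Gad2 neurons of the same libraries, where 11.6% of the 11387 genes tested were higher (edgeR quasi-likelihood test with the library as a block, Benjamini-Hochberg adjusted over all genes, as for every adjusted p here). Mobp, of the compacted layers, was at 648, 2173 and 47.3 CPM in fed 1, 2 and 3 and 762 and 1507 CPM in fasted 1 and 2 in lineage nuclei. In neurons Mobp was at 6.99, 2.36 and 3.55 CPM in fed 1, 2 and 3 and 15.3 and 15.9 CPM in fasted 1 and 2, below the lineage nuclei in all 5 libraries, and the log2 difference was 6.46 ± 0.41 (adjusted p = 1.23e-17). Mbp was at 1781, 2944 and 189 CPM in fed 1, 2 and 3 and 1353 and 2307 CPM in fasted 1 and 2 in lineage nuclei and between 68.6 and 119 CPM in neurons. Its log2 difference, 3.73 ± 0.33 (adjusted p = 5.08e-13), was the smallest of the 9, next to that of Cnp with 3.88 ± 0.50 (adjusted p = 2.25e-08). The surface proteins Mog and Mag gave 6.61 ± 0.39 and 6.56 ± 0.40, Cldn11 gave 6.01 ± 0.37, Opalin 5.79 ± 0.46, Ermn 5.52 ± 0.62 and Mal 4.95 ± 0.40, with adjusted p between 5.51e-19 and 5.82e-10. Cnp was higher in lineage nuclei in 4 of 5 libraries and listed at 0 in fed 3, the other 8 genes in all 5. Of the further sheath and lipid genes 30 of 33 tested were higher and 1 lower, of the regulators 14 of 16 higher and 1 lower, and all 12 precursor genes were higher. In fed 3 the 13 lineage nuclei held 34 UMIs of the 9 genes together, and in the other libraries they held 305 to 1528.

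Within the lineage gate the myelin genes were higher in nuclei with Sox10 and without Pdgfra than in nuclei with Pdgfra. The 71 Pdgfra nuclei together held 41 UMIs of Mbp, 7 of Cldn11, 6 of Cnp, 5 of Mog, 5 of Mal, 3 of Mobp, 2 of Mag, 2 of Opalin and 1 of Ermn. The 54 nuclei with Sox10 and without Pdgfra, called Sox10 nuclei from here on, held 1241 UMIs of Mbp, 806 of Mobp and 43 of Ermn, the fewest except for Cnp with 37. The 19 remaining nuclei, with Olig2 alone, held 255 UMIs of Mbp and 165 of Mobp, and their UMIs of the 9 genes together were 300 in fed 2, 286 in fasted 2 and 1 in fasted 1. Mbp was at 4899, 4770.2 and 1343 CPM in fed 1, 2 and 3 and 7445 and 6036 CPM in fasted 1 and 2 in Sox10 nuclei, 63.9-fold above Pdgfra nuclei, or 5.999 ± 0.49 (adjusted p = 1.96e-07) on the log2 scale. Of the 9 genes 8 passed the filter on low counts in the 4 libraries with at least 5 nuclei of each kind, and all 8 were higher in Sox10 nuclei, where 20.7% of 1398 genes were. Cnp did not pass that filter. Without 1 library in turn 7 to 9 genes were called. Of the list of 44 further myelin sheath and lipid genes, 15 of the 16 tested were higher in Sox10 nuclei, among them Aspa, which breaks down N-acetylaspartate, with 5.83 ± 0.56 (adjusted p = 5.09e-07). Of 12 precursor genes 10 were tested and all 10 were lower. Fed 3 had 2 Sox10 nuclei and did not enter this comparison.

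**Figure D1:**
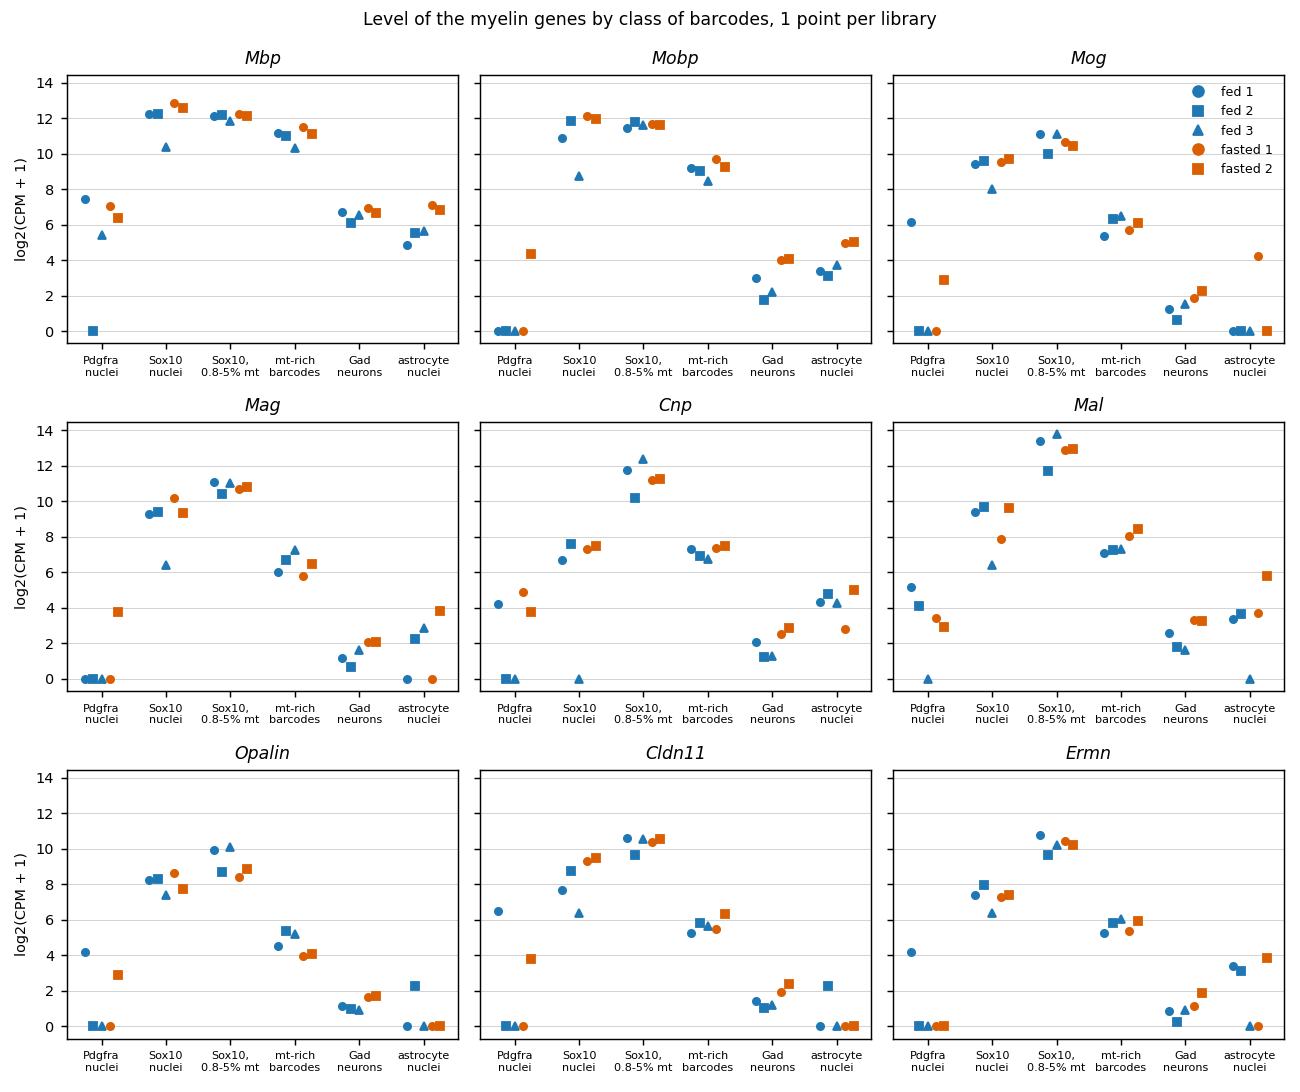
Level of each myelin gene as log2(CPM + 1), 1 point per library (blue fed, orange fasted), in 6 classes of barcodes. In each library the 9 genes stand lower in Pdgfra nuclei, neurons and astrocyte nuclei than in the Sox10 classes, except Cnp, listed at 0 in Sox10 nuclei of fed 3, a point that rests on 2 nuclei.

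The share of nuclei in the lineage gate did not separate the feeding states. It was 2.00, 3.19 and 0.904% in fed 1, 2 and 3 and 1.46 and 2.71% in fasted 1 and 2, a mean of 2.03 ± 1.14% (SD, n = 3) against 2.09 ± 0.882% (SD, n = 2). Fed 3 was the lowest and fed 2 the highest, and the groups overlapped (exact permutation test, two-sided, p = 1, the smallest p possible with these libraries being 0.1). The exact 95% binomial interval of fed 3 was 0.482 to 1.54%, and that of fed 2 was 2.24 to 4.38%.

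Most UMIs of the myelin genes lay outside the nuclei, which held 4.75 to 40.1% of them per library, against 21.1 to 45.9% in barcodes with 0.8 to 5% mitochondrial UMIs and 13.5 to 70.1% in mitochondria-rich barcodes. Barcodes with Sox10 at 0.8 to 5% were therefore set against the Sox10 nuclei, a comparison added after the data were seen. These 112 barcodes (23, 15 and 2 in fed 1, 2 and 3 and 44 and 28 in fasted 1 and 2) passed the same gate as the Sox10 nuclei but for the mitochondrial share, and the log2 differences of the myelin genes varied in size. Cnp, Mal and Ermn were far higher than in Sox10 nuclei, Cldn11, Mag and Mog were higher by less, and Mbp, Mobp and Opalin did not pass the test. The members were not tested against each other.

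Cnp, the enzyme of the cytoplasmic channels, was at 102, 191 and 0 CPM in fed 1, 2 and 3 and 156 and 179 CPM in fasted 1 and 2 in Sox10 nuclei, listed at 0 in fed 3. In the barcodes of 0.8 to 5% it was at 3413, 1178 and 5246 CPM in fed 1, 2 and 3 and 2363 and 2443 CPM in fasted 1 and 2, above every Sox10 nuclei sum, 15.96-fold or 4.00 ± 0.42 (adjusted p = 9.51e-06) on the log2 scale. Mal, the sorting proteolipid, was at 680.5, 806 and 84.0 CPM in fed 1, 2 and 3 and 234 and 769.9 CPM in fasted 1 and 2 in Sox10 nuclei. It was at 10618, 3299 and 13944 CPM in fed 1, 2 and 3 and 7477 and 7922 CPM in fasted 1 and 2 in the barcodes of 0.8 to 5%, 13.6-fold higher, 3.76 ± 0.46 (adjusted p = 2.27e-05), and no libraries of the classes overlapped. Ermn, ermin, was at 170.1, 246 and 84.0 CPM in fed 1, 2 and 3 and 156 and 167 CPM in fasted 1 and 2 in Sox10 nuclei. In the barcodes of 0.8 to 5% Ermn was at 1773, 808 and 1166 CPM in fed 1, 2 and 3 and 1375 and 1181 CPM in fasted 1 and 2, again with no overlap, 2.97 ± 0.39 (adjusted p = 4.35e-05).

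The other members differed less. Cldn11, the claudin, was higher by 1.67 ± 0.38 (adjusted p = 0.00315), Mag by 1.495 ± 0.34 (adjusted p = 0.0032) and Mog by 1.25 ± 0.34 (adjusted p = 0.012) on the log2 scale. Opalin gave 1.05 ± 0.38 (adjusted p = 0.0621), Mobp 0.18 ± 0.32 (adjusted p = 0.749), whose sign turned with scaling to library size alone, and Mbp -0.02 ± 0.32 (adjusted p = 0.97), none past the threshold. The difference of Opalin lay near that of Mog, and Opalin was called, higher, in 3 of 9 alternatives. Mbp was at 4489, 4544 and 3632 CPM in fed 1, 2 and 3 and 4806 and 4457 CPM in fasted 1 and 2 in the barcodes of 0.8 to 5%, within or near its range in Sox10 nuclei. Hence 6 of the 9 genes were called, all higher, where 17.1% of 1706 genes tested were higher, in the 4 libraries with at least 5 barcodes of each class. Of the further sheath and lipid genes 18 of 36 tested were higher and none lower. They included Cryab, a small heat shock protein, with 6.42 ± 0.58 (adjusted p = 2.99e-06), Ppp1r14a, a phosphatase inhibitor, with 3.28 ± 0.39 (adjusted p = 1.84e-05), Trf, transferrin, with 3.01 ± 0.40 (adjusted p = 4.36e-05), and Car2, carbonic anhydrase, with 2.53 ± 0.38 (adjusted p = 1.14e-04).

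These sums rested on few barcodes for Mal, Cnp and Ermn. Single barcodes of 0.8 to 5% held up to 636, 147, 311, 367 and 508 UMIs of Mal in fed 1, 2 and 3 and fasted 1 and 2, where no Sox10 nucleus held more than 17. The top 5% of barcodes, 1 to 3 per library, held 76.4, 75.0, 38.9 and 59.8% of the Mal UMIs and 72.1, 91.4, 34.2 and 49.1% of the Cnp UMIs in fed 1, fed 2, fasted 1 and fasted 2, and in fed 3 a single barcode held all of both. With each barcode thinned to 1000 UMIs, Mal was detected in 54 of 109 barcodes of 0.8 to 5% and in 22 of 53 Sox10 nuclei, and Cnp in 43 of 109 and in 4 of 53, with 3 and 1 shallower barcodes left out. Before thinning, the shares per library were 50 to 80% against 50 to 65% for Mal and 33.3 to 54.5% against 0 to 53.3% for Cnp. Without fasted 2 the calls of Mog, Mag and Cldn11 were lost (adjusted p = 0.125, 0.0967 and 0.0804), and without fed 1 that of Mog (0.115).

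**Figure D2:**
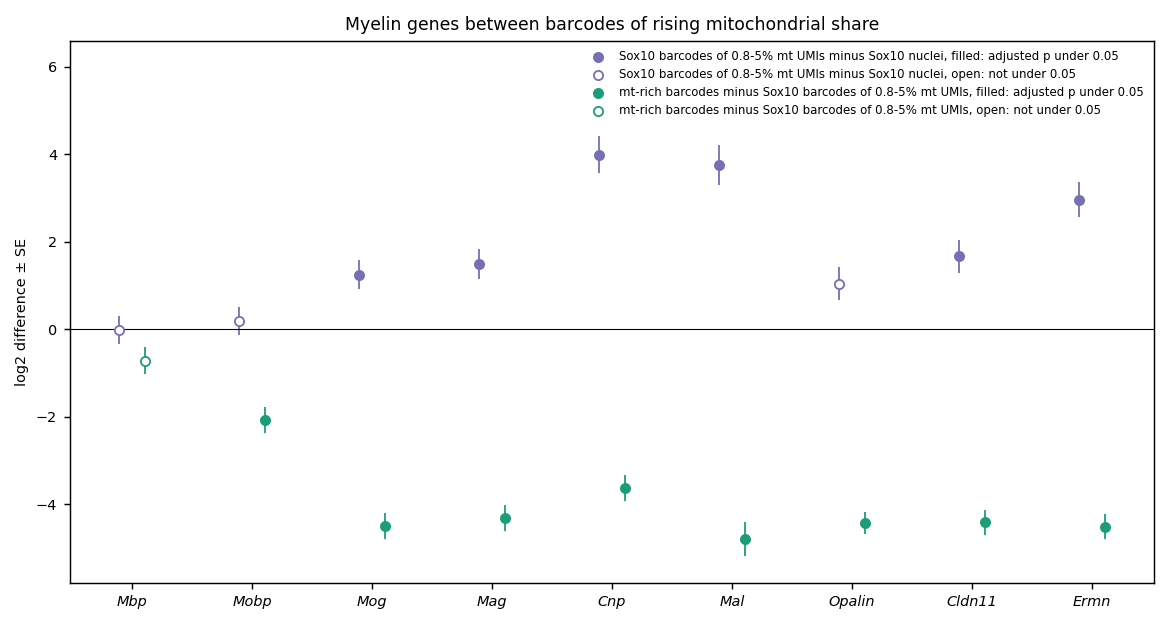
Log2 difference ± SE of each myelin gene between Sox10 barcodes of 0.8 to 5% mitochondrial UMIs and Sox10 nuclei (purple) and between mitochondria-rich barcodes and the former (green), filled where the adjusted p is under 0.05, 4 libraries. Mbp and Mobp are near 0 in purple while Cnp and Mal stand near 4, and in green Mbp and Mobp stand closest to 0. Unlike the Sox10 classes, mitochondria-rich barcodes had no gate on cell type.

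Mitochondria-rich barcodes carried a different mixture. The 9 genes were all higher there than in neurons, by 3.99 ± 0.32 for Opalin to 6.40 ± 0.25 for Mobp on the log2 scale, in a comparison in which 40.2% of 13002 genes were higher. Of 42 sheath and lipid genes 40 were higher. Against lineage nuclei only Cnp was higher, 3.03-fold, 1.60 ± 0.34 (adjusted p = 9.33e-04), where 31.2% of 6437 genes were higher and 28.5% lower. Mog (-1.57 ± 0.37), Opalin (-1.87 ± 0.35), Cldn11 (-1.34 ± 0.34) and Mag (-1.13 ± 0.43) were lower, with adjusted p between 2.59e-04 and 0.0319. Mag was called in only 6 of 14 alternatives, with adjusted p up to 0.319. Among the losses were RLE scaling and the fits without fed 1, fed 2, fasted 1 or fasted 2. Without each of these 4 libraries the adjusted p was 0.143, 0.179, 0.197 and 0.154 in that order. Mbp gave 0.88 ± 0.40 (adjusted p = 0.069), Mal 0.49 ± 0.47 (adjusted p = 0.384), Ermn 0.03 ± 0.37 (adjusted p = 0.959) and Mobp -0.14 ± 0.46 (adjusted p = 0.809), none past the threshold, the signs of Ermn and Mobp turning with another scaling. Mbp was called, higher, in 7 of 14 alternatives, among them the likelihood ratio test, DESeq2 and RLE scaling and the fits without fed 2 or without fasted 2. Mal was called in 4 of 14, higher without fed 2, from a share of 2% and with no filter, and lower against Sox10 nuclei alone. Of the precursor genes all 12 were lower, led by Megf11, Vcan and Cspg4, and of 28 sheath and lipid genes 5 were higher and 14 lower. Against Sox10 nuclei alone Cnp was no longer called (0.48, adjusted p = 0.305), and Mobp, Mal and Ermn were lower, with log2 differences of -1.81, -0.97 and -1.31. In a class of mixed barcodes, fewer oligodendrocyte fragments and less RNA per fragment cannot be told apart.

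Against the Sox10 barcodes of 0.8 to 5%, a second comparison added after the data were seen, 8 of the 9 genes were lower in mitochondria-rich barcodes, where 21.1% of 8699 genes were lower. Only the former class was gated on Sox10, and 12084 of the 13537 mitochondria-rich barcodes held no lineage UMI. The direction of the difference was therefore largely set by the gates. Mobp was lower by the least of these 8, -2.08 ± 0.29 (adjusted p = 5.04e-09), and Mal by the most, -4.80 ± 0.39 (adjusted p = 1.67e-18). Cnp stood between them with -3.64 ± 0.30 (adjusted p = 3.90e-18), and Mog, Mag, Opalin, Cldn11 and Ermn lay between -4.31 ± 0.29 and -4.52 ± 0.29. Of the 44 sheath and lipid genes 42 were lower. Mbp did not pass the test, with -0.72 ± 0.32 (adjusted p = 0.0529). It was called, lower, in 4 of 9 alternatives, namely by the likelihood ratio test (adjusted p = 0.00485), by DESeq2 (0.00584), with scaling to library size alone (0.00463) and without fed 2 (0.0334). It was at 2320.3, 2062 and 1279 CPM in fed 1, 2 and 3 and 2905 and 2239.8 CPM in fasted 1 and 2 in mitochondria-rich barcodes.

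Over finer bins of mitochondrial share, taken over every barcode of a library, the myelin genes separated. In the bin of 5 to 10% Mog was at 129, 215, 318, 171 and 186 CPM in fed 1, 2 and 3 and fasted 1 and 2, and in that of 20 to 40% at 17.4, 25.0, 4.64, 17.0 and 22.1 CPM. Opalin went from 53.5, 122, 154, 36.2 and 32.5 to 11.4, 4.99, 4.64, 8.06 and 8.04 CPM in the same order, and Mag from 218, 269, 565, 167 and 223 to 23.9, 18.3, 18.6, 21.7 and 28.5 CPM. These 3 genes were lower in the upper bin in every library, as were Mal, Cldn11 and Ermn. Mobp was higher there in fed 1 and fasted 1 and lower in the others. Mbp was at 1747, 2130.4, 2024, 1244 and 1759 CPM in the lower and 2319, 2135, 966, 3271 and 2552 CPM in the upper bin, higher in all libraries but fed 3. Cnp was at 138, 137, 82.2, 159 and 211 CPM in the lower and 149, 128, 139, 158 and 150.0 CPM in the upper bin, with the libraries split in direction. Fed 3 had 20 barcodes in the lower and 60 in the upper bin, the other libraries 145 or more in each. Bins of 1 library are not replicates, and no test was made.

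**Figure D3:**
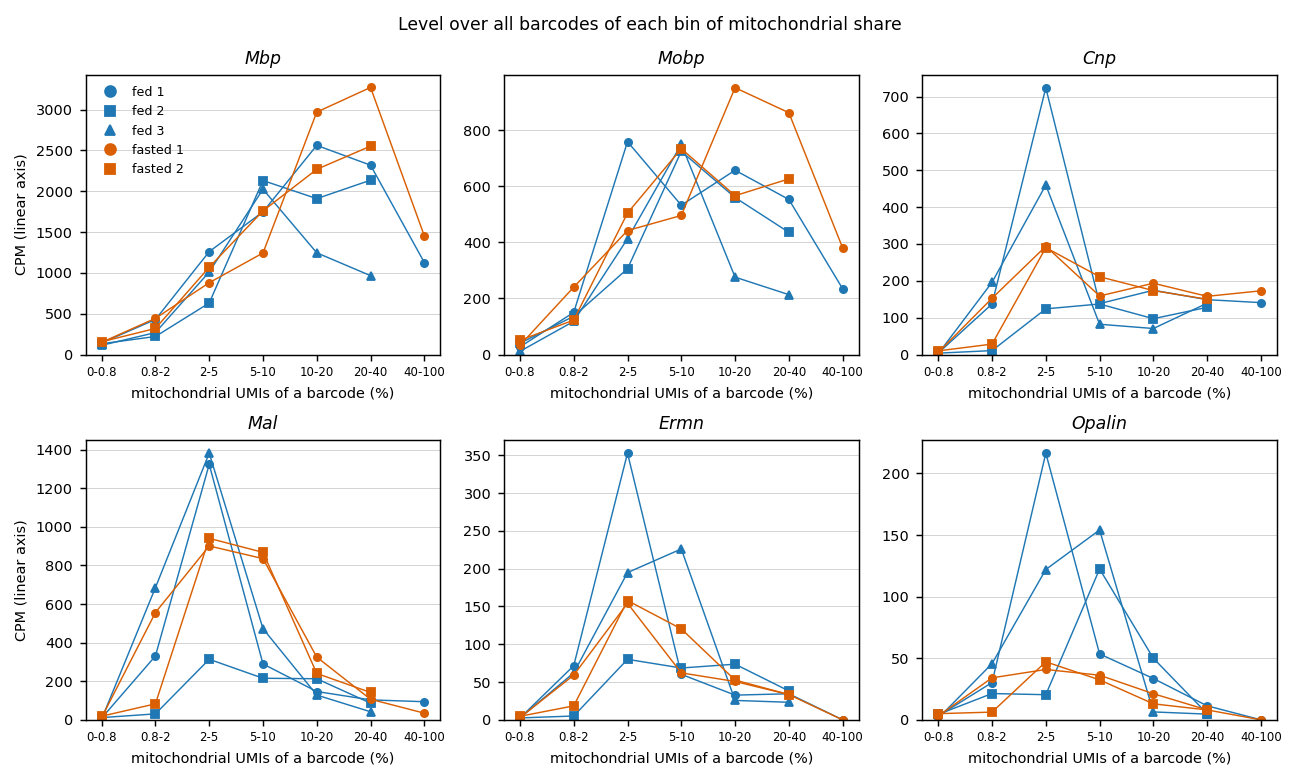
CPM (linear axes that differ between panels) of 6 myelin genes over all barcodes in bins of mitochondrial share, 1 line per library (blue fed, orange fasted). Mbp stands between 966 and 3271 CPM in the bins from 5 to 40%, whereas Mal, Ermn and Opalin are highest in a bin between 2 and 10% in every library. The bin from 40% holds at most 19 barcodes of a library.

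The ratio of Mbp to Mobp, both of the compacted layers, differed between some of the classes. In Sox10 barcodes of 0.8 to 5% the number of Mbp UMIs per Mobp UMI was 1.63, 1.30 and 1.17 in fed 1, 2 and 3 and 1.49 and 1.44 in fasted 1 and 2. In mitochondria-rich barcodes the ratio was 4.01, 3.92 and 3.70 in fed 1, 2 and 3 and 3.52 and 3.64 in fasted 1 and 2, above all values of the former class. In Sox10 nuclei it was 2.57, 1.30 and 3.20 in fed 1, 2 and 3 and 1.65 and 1.499 in fasted 1 and 2, a wider range that overlapped with the barcodes of 0.8 to 5%. The value of fed 3 there rests on 2 nuclei. In neurons the ratio was 15.0, 29.0 and 26.4 in fed 1, 2 and 3 and 7.79 and 6.27 in fasted 1 and 2, above the mitochondria-rich barcodes in every library, and both fasted libraries were below the 3 fed ones. In astrocyte nuclei it was 3, 6 and 4 in fed 1, 2 and 3 and 4.6 and 3.57 in fasted 1 and 2, below the neurons of every library. These astrocyte ratios rest on 71 Mbp and 17 Mobp UMIs in all libraries together, and their range spans that of the mitochondria-rich barcodes. In the annotation Mbp spans 110557 bases with 69 transcripts, and Mobp 37504 bases with 42. UMIs were counted per gene, so which Mbp transcripts they came from in each class was not resolved. The share of intronic UMIs, which depends on gene length, was not tested.

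**Figure D4:**
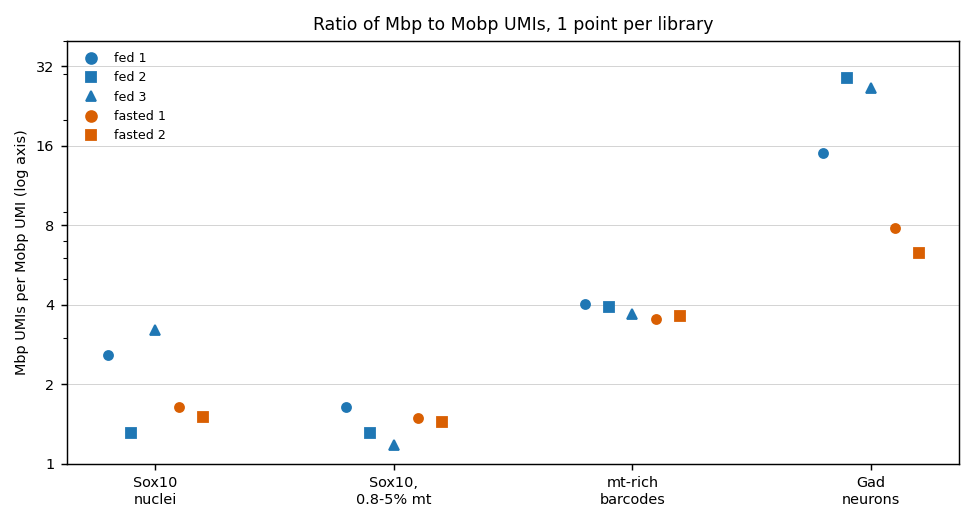
Mbp UMIs per Mobp UMI (log axis) in 4 classes, 1 point per library (blue fed, orange fasted). Mitochondria-rich barcodes lie close together between 3.52 and 4.01, and neurons spread from 6.27 in fasted 2 to 29 in fed 2.

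In Gad1/Gad2 neurons the fasted libraries held more myelin UMIs per 1000000 than the fed ones, but in the planned test none of the 9 genes was called. The same neurons had a median mitochondrial share of 0.114, 0.0579 and 0.0455% in fed 1, 2 and 3. In fasted 1 and 2 it was 0.286 and 0.192%, above all fed libraries. Mitochondria-rich barcodes numbered 3152, 910 and 123 in fed 1, 2 and 3 and 4800 and 4552 in fasted 1 and 2. The part of either in the difference with fasting was not tested. Mobp was at 6.99, 2.36 and 3.55 CPM in fed 1, 2 and 3 and 15.3 and 15.9 CPM in fasted 1 and 2, so that the fasted libraries stood above all fed ones, 3.82-fold or 1.93 ± 0.34 (adjusted p = 0.209) on the log2 scale. Mal was at 4.93, 2.43 and 2.13 CPM in fed 1, 2 and 3 and 9.04 and 8.59 CPM in fasted 1 and 2, likewise without overlap, 1.54 ± 0.33 (adjusted p = 0.239). Cnp was at 3.15, 1.35 and 1.42 CPM in fed 1, 2 and 3 and 4.85 and 6.26 CPM in fasted 1 and 2, 1.60 ± 0.37 (adjusted p = 0.269).

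The remaining genes were scarcer or closer. Cldn11 gave 1.46 ± 0.33 (adjusted p = 0.263), Mog 1.34 ± 0.45 (adjusted p = 0.669), Mag 1.21 ± 0.45 (adjusted p = 0.781), Opalin 1.14 ± 0.35 (adjusted p = 0.581) and Ermn 1.68 ± 0.56 (adjusted p = 0.662). Over the libraries Cldn11 was at 1.08 to 4.30 CPM, Mog at 0.540 to 3.77 and Mag at 0.608 to 3.28. Opalin was at 0.875 to 2.33 CPM and Ermn at 0.203 to 2.65, with 113 and 100 UMIs over all neurons. Single neurons held up to 29 UMIs of Mobp, 36 of Mal and 27 of Cnp. Mbp was at 104.7, 68.6 and 94.0 CPM in fed 1, 2 and 3 and 119 and 99.7 CPM in fasted 1 and 2, and with 0.28 ± 0.19 (adjusted p = 1) it was the gene whose libraries overlapped. In 8 of the 9 genes, all but Mbp, both fasted libraries were above all fed libraries, as in 11.6% of all 13497 genes tested, with 6.25% in the opposite order. The median log2 difference of the 9 genes was 1.46, and that of all genes was -0.01. The quasi-likelihood test called 1 gene in all (0.00741%), Ptgds, the prostaglandin D synthase of oligodendrocytes and meninges, with 3.41 ± 0.24 (adjusted p = 0.00368), which is no member and was chosen after its value was seen. At an unadjusted p under 0.05 it gave 717 genes. None of the 37 sheath and lipid genes, 13 regulators and 11 precursor genes tested was called, with median log2 differences of 0.37, 0.29 and -0.03.

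The replicate numbers were taken to pair libraries of 1 preparation, and with them as a block the call changed. Then 8 of the 9 genes were higher with fasting, against 2.63% of all genes higher and 3.56% called in either direction. Mobp gave 1.93 ± 0.21 (adjusted p = 7.96e-17), Mal 1.36 ± 0.25 (adjusted p = 9.54e-06), Cnp 1.48 ± 0.32 (adjusted p = 2.65e-04), Mog 1.96 ± 0.43 (adjusted p = 3.49e-04), Mag 1.92 ± 0.43 (adjusted p = 4.87e-04), Ermn 2.26 ± 0.56 (adjusted p = 0.00273), Cldn11 1.48 ± 0.38 (adjusted p = 0.00592) and Mbp 0.34 ± 0.09 (adjusted p = 0.00625). Opalin did not pass, with 1.05 ± 0.45 (adjusted p = 0.257). That fit leaves 1 residual degree of freedom, and fed 3 adds nothing to its difference. Its p-values therefore rest mainly on variance estimated over all genes and little on each gene's own spread between libraries. Without the block the likelihood ratio test called Mobp, Cnp, Mal and Cldn11, and DESeq2 called Mobp and Mal. Without fed 1 the quasi-likelihood test called Mobp (adjusted p = 0.0252).

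Summed markers of oligodendrocytes and of astrocytes were also higher in neurons of the fasted libraries. The 6 oligodendrocyte markers summed to 57.8 to 73.1 CPM in neurons of fed and 88.3 to 104 CPM of fasted libraries, with all 6 detected in each. The 6 astrocyte markers, also all detected, summed to 135 to 191 CPM in fed and 210.2 to 254 CPM in fasted libraries. In nuclei gated as astrocytes the 9 myelin genes together were at 75.6, 109 and 85.7 CPM in fed 1, 2 and 3 and 204 and 253 CPM in fasted 1 and 2, again without overlap. With each nucleus thinned to 1000 UMIs, 0.136 to 1.98% of neurons per library had a Mobp UMI and 0 to 2.33% of astrocyte nuclei did, at median depths of 7445 to 18447.5 and 2471 to 4449 UMIs before thinning. For Mbp the shares were 6.64 to 11.1% and 0 to 14.3%. Thinning left out 2 neurons and 4 astrocyte nuclei, and before it the shares in neurons were 3.38 to 15.5% for Mobp and 53.2 to 69.2% for Mbp, and in astrocyte nuclei 2.86 to 14.3% and 8.57 to 27.9%. In fed 1, 2 and 3 the thinned share of Mbp was 10.4, 6.64 and 7.28% in neurons and 0, 3.33 and 8.33% in astrocyte nuclei, and in fasted 1 and 2 it was 11.1 and 7.52% against 14.0 and 14.3%. The exact 95% intervals of the classes overlapped in every library for both genes. With 35 to 62 astrocyte nuclei per library before thinning these intervals were wide, so their overlap cannot decide whether the classes were alike. The part of oligodendrocyte and astrocyte RNA in the difference with fasting was not tested.

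**Figure D5:**
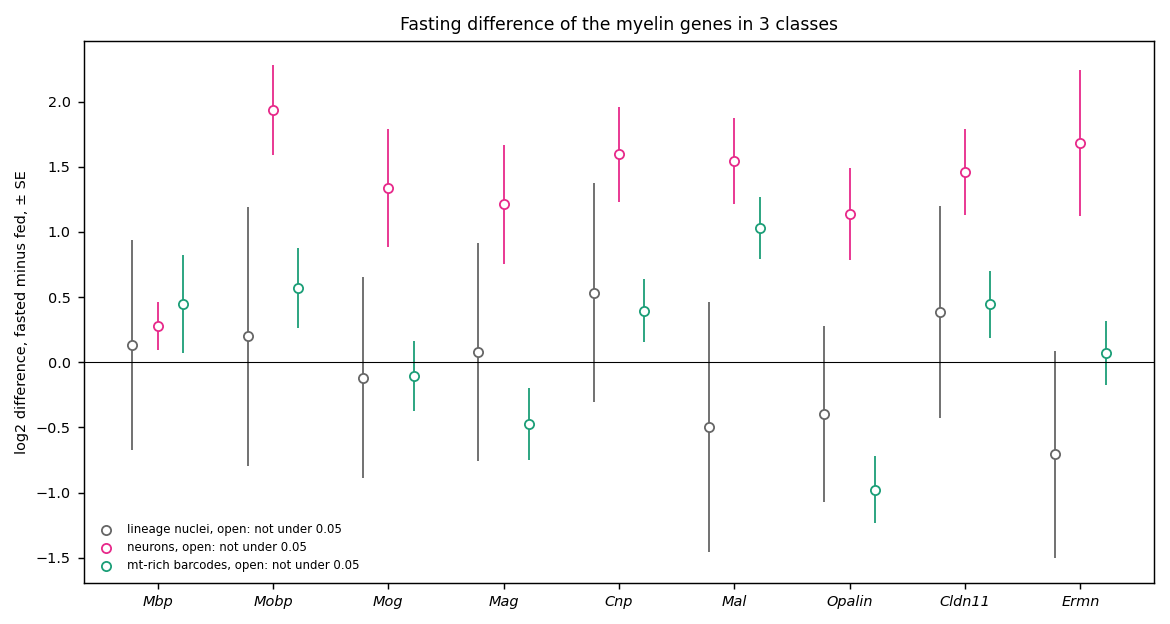
Log2 difference, fasted minus fed, ± SE of each myelin gene in lineage nuclei (grey), neurons (pink) and mitochondria-rich barcodes (green), from the fits without the replicate block, in which none passed an adjusted p of 0.05. In neurons 8 genes stand above 1 and Mbp at 0.28, and in mitochondria-rich barcodes Mal stands at 1.03 and Opalin at -0.98.

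In mitochondria-rich barcodes the log2 differences of the myelin genes with fasting had both signs, and the members were not tested against each other. Mal was at 135, 149 and 160.1 CPM in fed 1, 2 and 3 and 257 and 339 CPM in fasted 1 and 2, above all fed libraries in both fasted ones, 2.04-fold or 1.03 ± 0.24 (adjusted p = 0.175). Opalin was at 21.9, 39.6 and 36.3 CPM in fed 1, 2 and 3 and 14.8 and 15.6 CPM in fasted 1 and 2, below all fed libraries in both fasted ones, -0.98 ± 0.25 (adjusted p = 0.289). Neither was called, nor was any other member, while 0.0724% of the 12434 genes were.

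With the replicate block both were called, Mal with 1.02 ± 0.11 (adjusted p = 2.35e-05) and Opalin with -0.92 ± 0.20 (adjusted p = 0.024), among 1.57% of all genes. Opalin was also called without fed 1 (adjusted p = 0.00471), and Mal by the likelihood ratio test and by DESeq2. Mbp gave 0.45 ± 0.38, Mobp 0.57 ± 0.31, Cldn11 0.44 ± 0.26, Cnp 0.39 ± 0.24, Ermn 0.07 ± 0.25, Mog -0.10 ± 0.27 and Mag -0.47 ± 0.28, each with an adjusted p of 1. Both fasted libraries were above all fed ones in 3 genes and below in 1, against 7.58% and 7.05% of all genes.

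The value of Mal depended on few barcodes and on the bound. The top 5% of barcodes held 71.9, 73.4, 54.7, 78.7 and 73.6% of its UMIs in fed 1, 2 and 3 and fasted 1 and 2, with up to 591 in 1 barcode. From 5 to 10% mitochondrial UMIs Mal was at 289.7, 215, 473, 835 and 868 CPM in the same order, and from 20 to 40% at 103, 86.5, 41.8, 107 and 142 CPM, where fasted 1 stood just above fed 1. With a bound of 10% in place of 5% the log2 difference was 0.69, with 2% it was 0.07, and without barcodes holding a lineage UMI it was 0.60. Of the 44 further sheath and lipid genes, all tested, 2 fell and none rose. These were Ninj2, ninjurin 2, a cell surface adhesion molecule, with -2.47 ± 0.33 (adjusted p = 9.39e-04), and Prr5l, a protein of the mTORC2 complex, with -2.04 ± 0.37 (adjusted p = 0.0425). The call of Prr5l was lost without fed 3 (adjusted p = 0.135), with scaling to library size alone and by DESeq2. None of 19 regulators and 12 precursor genes was called, and the median log2 difference of the sheath and lipid list was -0.20 beside 0.00097 for all genes.

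The fasting differences of mitochondria-rich barcodes and neurons were then compared in 1 model. The difference of differences was -2.11 ± 0.43 (adjusted p = 0.0918) for Opalin, -1.71 ± 0.37 (adjusted p = 0.0979) for Mag and -1.26 ± 0.31 (adjusted p = 0.168) for Mobp, none past the threshold, and the other 6 genes were not called either, with 0.0505% of 13864 genes called. Opalin was called in 7 of 10 alternatives, Mag in 6, Mobp, Mog and Ermn in 5 each, Cnp in 2, and Mbp, Mal and Cldn11 in none. Among the lists Prr5l gave -2.63 ± 0.29 (adjusted p = 2.92e-04) and St18, a transcription factor of oligodendrocytes, -1.78 ± 0.26 (adjusted p = 0.00603), both lower in mitochondria-rich barcodes, and the call of St18 was lost without fed 2 or fed 3. No member was called in the same comparison of lineage nuclei with either class, with 0% of 8107 genes called against mitochondria-rich barcodes and 0.0237% of 12637 against neurons. Without fed 1, 6 members passed in the comparison with neurons and without fasted 1, 5 passed. Without fed 3, 4 members passed in that of lineage nuclei with neurons.

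In lineage nuclei the groups overlapped for all 9 genes, while 9.27% of all genes tested were higher in both fasted libraries than in all fed ones and 7.83% lower. Mbp was at 1781, 2944 and 189 CPM in fed 1, 2 and 3 and 1353 and 2307 CPM in fasted 1 and 2, with fed 3 the lowest and fed 2 the highest of all libraries, and the log2 difference was 0.13 ± 0.81 (adjusted p = 0.999). Pdgfra nuclei, where Mbp was lower than in Sox10 nuclei, were 13 of 23, 9 of 36 and 11 of 13 lineage nuclei in fed 1, 2 and 3. In fasted 1 and 2 they were 14 of 25 and 24 of 47. The part of this mix in the spread between libraries was not tested. The differences of the 9 genes lay between -0.71 ± 0.80 for Ermn and 0.53 ± 0.84 for Cnp, with standard errors of 0.67 to 0.99, against 0.24 for Mbp to 0.65 for Cnp with the replicate block. None of the 9 and 0% of all 3680 genes were called by the quasi-likelihood test (112 at an unadjusted p under 0.05) or by DESeq2, and the likelihood ratio test called 10. With the replicate block 1.77% of genes and none of the 9 were called. Of the sheath and lipid, regulator and precursor lists 27, 12 and 12 genes were tested, and none was called. In Sox10 nuclei alone Mbp was at 4899, 4770.2 and 1343 CPM in fed 1, 2 and 3 and 7445 and 6036 CPM in fasted 1 and 2, and the 2 nuclei of fed 3 gave the low value.

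Across the 15 sums of lineage nuclei, neurons and mitochondria-rich barcodes in 5 libraries, the mean log2(CPM + 1) of the 9 genes was matched with each of 18338 genes. Among the genes most like it were Hepacam (Pearson's r = 0.983), Septin7 (0.976), Lama2 (0.971) and Il18 (0.967). Each member against the mean of the other 8 gave between 0.860 for Cnp and 0.989 for Mobp. The 15 points share libraries and depth and fall into 3 classes, so that these values describe the pattern across classes and carry no p.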

How the data were processed

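Dissected CeA nuclei of 5 libraries were captured by droplet with 3′ chemistry, and the authors deposited raw UMI counts per gene and barcode. By the methods these counts came from Cell Ranger 5.0.0 with intronic reads kept, against GRCm39 with Ensembl 105 genes plus Cre and mCherry, whereas the submitters' processing notes list mm10 and Cell Ranger 2.1.1. Depth was 17321997 to 53146326 UMIs per library, and the classes compared held 86689 to 292478 UMIs per library for lineage nuclei, which limits their precision.

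Classes were gated on mitochondrial share and on UMIs of Pdgfra, Sox10, Olig2, Gad1 and Gad2, with doublets kept (Scrublet marked 70 of 7161 nuclei, 0.978%). Astrocyte nuclei had at least 1 UMI of Aqp4 or Gja1 and none of the other gating genes. Cells are not replicates, so counts were summed per library and class, the 13 mitochondrial genes left out, and fitted across all genes in edgeR 4.0.16 (filterByExpr, TMM scaling, quasi-likelihood test) under R 4.3.3, with Benjamini-Hochberg adjustment and a threshold of 0.05. The standard error is the size of the log2 difference divided by the square root of F. Classes were compared with the library as a block, and Sox10 classes in the 4 libraries with at least 5 barcodes in each. The fed and fasted libraries came from separate pairs of mice, and p-values measure the spread between libraries. With the replicate block 1 residual degree of freedom is left, so those p-values rest mainly on variance estimated over all genes. DESeq2 1.42.0, the likelihood ratio test, other scalings and gates, a replicate block and leaving out each library were alternatives. Python 3.11.15, numpy 2.4.6, pandas 2.3.3, scipy 1.17.1, scanpy 1.11.5 and matplotlib 3.10.9 did the rest, and the fits were tested on simulated data with known changes.

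The members, gates and lists (44 sheath and lipid genes, 20 regulators and 12 precursor genes) were chosen with earlier results of these data known. The text names all 9 members and, per comparison, at most 5 called genes of the lists with the lowest p. The genes listed as most like the members were taken by Pearson's r. A gene that these rules would name is not reported here. The study describes its datasets Fed_1 and Fast_1 as 1 preparation batch and Fed_2 and Fast_2 as another, and replicate numbers were taken to match. The batch of the Htr2a-Cre library is not given by that name in the sources used here. Under this matching it would be the further fed dataset, which the study describes as a separate batch. Deviations of same-numbered libraries from their group means correlated at r = -0.03 and 0.28 in lineage nuclei, 0.32 and 0.48 in neurons and 0.29 and 0.29 in mitochondria-rich barcodes, across genes.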

Additional observations from a re-analysis of the deposited data

Results flagged for a closer look

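For Opalin, the oligodendrocyte membrane protein, the fasted libraries stood on opposite sides of the fed ones in 2 classes. In Gad1/Gad2 neurons both fasted libraries were above all 3 fed ones, with a log2 difference of 1.14 (edgeR quasi-likelihood test, adjusted p = 0.581), and in mitochondria-rich barcodes both were below all 3, with -0.98 (adjusted p = 0.289), so that neither difference passed. The difference between them, tested as an interaction, was -2.11 (adjusted p = 0.0918), which did not pass either. It was called in 7 of 10 alternatives, with log2 differences between -2.54 and -1.88. The top 5% of mitochondria-rich barcodes held 82.4 to 100% of Opalin's UMIs per library. From 20 to 40% mitochondrial UMIs fed 2 and fed 3, at 4.99 and 4.64 CPM, stood below fasted 1 and 2, at 8.06 and 8.04 CPM. Fed 1, at 11.4 CPM, stood above them. In neurons the 6 oligodendrocyte markers summed to 57.8 to 73.1 CPM in fed and 88.3 to 104 CPM in fasted libraries and the 6 astrocyte markers to 135 to 191 and 210.2 to 254 CPM, and their part in the result was not tested.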

How the results depend on the processing

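Fasting in lineage nuclei gave no called member under any alternative run, but signs turned. With the replicate block the log2 differences were -0.39 for Mbp, -0.22 for Mobp, -0.44 for Mag and -0.14 for Cldn11. With up to 1 Gad UMI allowed, an alternative added after the data were seen, they were -0.25 for Mbp, -0.11 for Mobp and -0.33 for Mag. In Sox10 nuclei alone Mog was at 0.0763, and in lineage-gated barcodes of 0.8 to 5% Mog, Mal and Ermn were at 0.0688, 0.48 and 0.23, both added likewise. Leaving out 1 library gave -0.39 to 0.95 for Mbp, -0.37 to 1.79 for Mobp, -0.97 to 0.69 for Mog, -0.47 to 1.30 for Mag, -0.0134 to 0.91 for Cnp, -2.33 to 0.50 for Mal, -0.87 to 0.48 for Opalin and -0.52 to 1.68 for Cldn11. The share of lineage nuclei, fasted minus fed, was -0.0312 percentage points with at least 2 lineage UMIs, -0.357 under 0.5% mitochondrial UMIs and -0.566 to 0.681 without 1 library.

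In neurons the members called were 4 by the likelihood ratio test, 2 by DESeq2, 3 with no filter on low counts, 8 with the replicate block and 0 to 1 without 1 library. Among all genes 1 was called, and 161, 90, 137 and 480 under these alternatives, with up to 26 without 1 library. In mitochondria-rich barcodes the members called were 1, 1, 2 and 2 and 0 to 1 without 1 library, and the genes called were 9, against 46, 12, 73 and 195, and 5 to 97 without 1 library. There Mog was at 0.0632 with the replicate block, Cnp at -0.10 and Ermn at -0.30 from a share of 2%, Ermn at -0.0846 with equal UMIs and at -0.21 without lineage UMIs, and without 1 library Mog spanned -0.45 to 0.12, Cldn11 -0.0142 to 0.78 and Ermn -0.21 to 0.28. Of the interaction between mitochondria-rich barcodes and neurons 5 members were called by the likelihood ratio test, 2 by DESeq2, 6 with no filter, 1 with RLE scaling, 5 by library size alone and 0 to 6 without 1 library, and of that between lineage nuclei and neurons 0 to 4 without 1 library.

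Between mitochondria-rich barcodes and lineage nuclei 3 members were called from a share of 2%, in place of 5, up to 7 under another alternative, and 4 to 6 without 1 library. Against Sox10 nuclei alone Mbp, Mal and Ermn were at -0.64, -0.97 and -1.31. Mobp was at 0.20 by DESeq2, 0.10 with no filter and 0.0722 with RLE scaling, Ermn at -0.20 by library size alone and -0.27 from a share of 10%, and Mal at -0.0008 from 10%. Without 1 library Mobp spanned -0.51 to 0.48 and Ermn -0.13 to 0.65. Between Sox10 barcodes of 0.8 to 5% and Sox10 nuclei Mobp was at -0.0706 by library size alone, 3 to 7 members were called without 1 library, and Mbp spanned -0.14 to 0.11 and Mobp -0.0631 to 0.33. Scaling to library size alone moved the median of all genes by -0.24 and -0.22 for mitochondria-rich barcodes against lineage nuclei and neurons, by 0.15 for lineage nuclei against neurons, and by -0.25 and -0.21 for the comparisons with Sox10 barcodes of 0.8 to 5%, and RLE scaling by 0.21 and 0.14 for mitochondria-rich barcodes against lineage nuclei and those barcodes. The replicate block was run for the 3 comparisons of fed with fasted libraries, where it changed no further call of a member, and not for the interactions. The cause of these changes was not tested.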
